A study of Mus musculus with 12 samples.

Results

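Fkbp5, Tsc22d3, Zbtb16, Sgk1, Nr3c1 and Hif3a are genes of the glucocorticoid response. They were followed in kidneys of female mice with and without warm ischemia, and they are 6 of the 22180 genes that the arrays measured with a probe set of 1 gene symbol. The genes were taken by name, with earlier results of these data known and with no threshold on their values, and each had 1 such probe set. RNA was hybridized to 12 arrays, 3 in each of 4 groups. WT and HDAC2-/- mice were 8 to 12 weeks old and were studied either without ischemia or 4 h after 28 min of clamping of the left renal pedicle. HDAC2-/- mice carried floxed HDAC2 alleles and a tamoxifen-activated Cre recombinase under the ubiquitin C promoter, so deletion was not confined to the kidney or to one cell type. The labels give the WT mice as Cre carriers as well, whereas the paper calls them WT B6 mice. All mice received tamoxifen at 100 mg/kg on 5 days, followed by 7 days of recovery. In ischemic mice the right kidney was removed when the clamp was released, under pentobarbital anesthesia and with saline given after closure. The methods describe no sham surgery for unischemic mice. Differences between ischemic and unischemic kidneys therefore include those of anesthesia, incision, nephrectomy and handling, which cannot be told apart from ischemia of the kidney here. The labels give the tissue as renal cortex, whereas the methods give it as the whole kidney. Hdac2, the targeted gene, read 7.90, 7.85 and 8.01 in WT kidneys, 7.83, 7.68 and 8.45 in HDAC2-/- kidneys, 7.93, 8.17 and 7.94 in ischemic WT kidneys and 8.12, 7.95 and 8.32 in ischemic HDAC2-/- kidneys, in log2 units. It was not lower in the kidneys labelled HDAC2-/-, and where its probe set lies relative to the floxed exons is not given in the sources used here, so the genotypes stand as labelled and were not checked by these arrays.

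Glucocorticoids are steroid hormones that the adrenal cortex releases under stress, including surgery. They enter cells and bind the glucocorticoid receptor, encoded by Nr3c1, which is held ready by HSP90 and its co-chaperones. The bound receptor moves to the nucleus and binds glucocorticoid response elements, an inverted repeat of a short half-site around a spacer. FKBP5 is a co-chaperone that lowers the receptor's affinity for hormone and is itself strongly induced, which closes a negative feedback loop. TSC22D3, also called GILZ, is a leucine zipper protein that carries part of the anti-inflammatory action. ZBTB16, also called PLZF, is a zinc finger transcription factor that responds to glucocorticoids and progestins in many cells. SGK1 is a kinase that raises sodium channel activity in the distal nephron under aldosterone and glucocorticoids, and it also responds to cell shrinkage and injury signals. HIF3A belongs to the hypoxia-inducible factor family, and its gene responds to both hypoxia and glucocorticoids.

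The promoters were read for the response element, the sequence that the bound receptor binds. Of the 6 genes, 4 had RefSeq promoter windows of build GRCm38.p6, with 1 window each for Fkbp5 and Hif3a, 3 for Tsc22d3 and 6 for Sgk1. The 250 bases before each start were searched for the full palindrome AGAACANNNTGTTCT and for the looser core GNACANNNTGTNC, which every full palindrome contains. Both read the same on either strand. The full palindrome occurred in 1 of the 6 Sgk1 windows and in 3 of all 32851 windows (0.00913%), and the core in 127 (0.387%). No match lay in the windows of Fkbp5, Tsc22d3 or Hif3a. Sequence outside these 250 bases was not searched, so elements elsewhere in or near these genes would be missed. The Sgk1 window is shown whole, 5′ to 3′ on the plus strand at chr10:21993640-21993889, with the palindrome in capitals at 189 to 175 bases before the start.
Sgk1: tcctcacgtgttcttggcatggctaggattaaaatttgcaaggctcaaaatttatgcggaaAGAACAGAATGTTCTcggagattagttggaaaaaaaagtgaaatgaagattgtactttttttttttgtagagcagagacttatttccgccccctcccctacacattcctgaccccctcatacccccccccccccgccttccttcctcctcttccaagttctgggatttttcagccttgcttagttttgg
A match is a stretch of letters and was not tested as a binding site.

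After ischemia Fkbp5 rose 3.17-fold, Zbtb16 3.15-fold and Sgk1 1.87-fold in WT kidneys, and these 3 genes and Tsc22d3 rose in HDAC2-/- kidneys. Nr3c1, the receptor itself, and Hif3a were called in neither genotype. All values are log2 values normalized by robust multiarray average, so a difference of 1 is a doubling, and they are given in the order of replicates 1, 2 and 3. The threshold for a call was an adjusted p of 0.05 in limma after Benjamini-Hochberg adjustment over all 34472 probe sets. In WT mice 3 of the 6 genes were called higher and 0 lower, and 6.55% of all probe sets were called higher and 7.17% lower. In HDAC2-/- mice 4 of the 6 were called higher and 0 lower, against 2.94% and 1.97% of all probe sets. Another rule was an unadjusted p under 0.05 from limma with at least a 2-fold change. By it 2 of the 6 passed in WT mice and 3 in HDAC2-/- mice, against 3.41% and 1.79% of all probe sets. The 6 genes had a median difference of 0.79 in WT mice and 0.91 in HDAC2-/- mice, whereas the median over all 22180 genes was -0.02 in both. As the kidneys were measured in bulk, a different number of cells of a type and a different amount of RNA per cell cannot be told apart. The labels give the samples as separate replicates without naming the animals, and the p-values measure the spread between these samples.

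Fkbp5 (probe set 17342868), the co-chaperone of the feedback loop, read 7.41, 6.49 and 6.34 in WT kidneys and 8.18, 8.39 and 8.67 in ischemic WT kidneys. The HDAC2-/- kidneys read 7.05, 6.40 and 6.57 and the ischemic HDAC2-/- kidneys 8.51, 8.44 and 8.40. Every ischemic array lay above every unischemic one, and the ischemic HDAC2-/- arrays lay within a narrow band. Within a genotype, 13% of all probe sets were likewise higher without overlap in WT mice and 9.91% in HDAC2-/- mice. The share with no overlap across both genotypes together was not counted. The rise was 1.67 in WT mice (SE 0.25, 3.17-fold, adjusted p = 0.00071 from limma), the 132nd largest of 22180 genes. In HDAC2-/- mice it was 1.78 (SE 0.25, 3.43-fold, adjusted p = 0.000886 from limma), at rank 85. A two-sided exact permutation test gave p = 0.1 in each genotype, the smallest that 3 arrays against 3 allow.

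Zbtb16 (probe set 17526707), the zinc finger factor, showed the same order of groups. Its values were 8.88, 7.72 and 7.50 in WT kidneys against 9.54, 9.49 and 10.03 in ischemic WT kidneys. They were 8.27, 7.54 and 7.56 in HDAC2-/- kidneys against 10.13, 9.80 and 10.09 in ischemic HDAC2-/- kidneys. Again no ischemic array overlapped an unischemic one. Of all probe sets, 13% were higher without overlap within WT mice and 9.91% within HDAC2-/- mice. Replicate 1 was the highest unischemic Zbtb16 array in both genotypes. The rise was 1.65 in WT mice (SE 0.30, 3.15-fold, adjusted p = 0.00289 from limma) and 2.22 in HDAC2-/- mice (SE 0.30, 4.65-fold, adjusted p = 0.000818 from limma). It ranked 141 and 44 among 22180 genes. Without WT replicate 1 the WT rise was 2.08, and without WT replicate 3 it was 1.39.

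Sgk1 (probe set 17232055) is the kinase of sodium transport and the gene with the palindrome shown. WT kidneys read 10.51, 9.99 and 10.25, and ischemic WT kidneys 11.14, 11.01 and 11.30. HDAC2-/- kidneys read 10.28, 9.86 and 10.59, and ischemic HDAC2-/- kidneys 11.35, 10.97 and 11.41. The ischemic groups lay above both unischemic groups with no overlap. Within a genotype, 13% of all probe sets in WT mice and 9.91% in HDAC2-/- mice were also higher without overlap. The rise was 0.90 in WT mice (SE 0.20, 1.87-fold, adjusted p = 0.0078 from limma) and 1 in HDAC2-/- mice (SE 0.20, 2-fold, adjusted p = 0.00904 from limma). The call in HDAC2-/- mice was lost without HDAC2-/- replicate 2 (adjusted p = 0.0534 from limma) and without ischemic HDAC2-/- replicate 3 (adjusted p = 0.0533 from limma).

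Tsc22d3 (probe set 17544939), the anti-inflammatory leucine zipper protein, lay at the threshold. In WT kidneys it read 7.55, 7.13 and 7.23, and in ischemic WT kidneys 7.85, 7.67 and 8.42. In HDAC2-/- kidneys it read 7.44, 7.14 and 7.79, and in ischemic HDAC2-/- kidneys 8.00, 8.34 and 8.46. The groups did not overlap within a genotype, as for 13% of all probe sets that were higher in WT mice and 9.91% that were higher in HDAC2-/- mice. The highest HDAC2-/- array stood above the lowest ischemic WT array. The difference was 0.68 in WT mice (SE 0.22, 1.60-fold, adjusted p = 0.0529 from limma) and was not called. In HDAC2-/- mice it was 0.81 (SE 0.22, 1.75-fold, adjusted p = 0.0472 from limma) and was called. The data were refitted 23 times with another setting or without 1 or 2 arrays. Among these, the setting with the lowest probe set of a gene repeated the main fit, since Tsc22d3 had 1 probe set. The call was made in 8 of 23 refits in WT mice, with adjusted p from 0.00944 to 0.195, and in 10 of 23 in HDAC2-/- mice, with adjusted p from 0.000959 to 0.217, all from limma. With single arrays left out, the WT difference was called without ischemic WT replicate 2 or HDAC2-/- replicate 2 or 3, and the HDAC2-/- call was kept only without HDAC2-/- replicate 3, ischemic WT replicate 2 or 3, or ischemic HDAC2-/- replicate 1. Without ischemic WT replicate 2 the WT difference was 0.83 (adjusted p = 0.0399 from limma), and without HDAC2-/- replicate 2 the HDAC2-/- difference was 0.65 (adjusted p = 0.217 from limma).

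Nr3c1 (probe set 17353985), the receptor gene, gave values of 8.51, 8.61 and 8.82 in WT kidneys and 8.83, 9.19 and 8.79 in ischemic WT kidneys. The HDAC2-/- arrays gave 8.66, 8.62 and 9.15, and the ischemic HDAC2-/- arrays 8.62, 8.89 and 8.67. The groups overlapped in both genotypes. The difference was 0.29 in WT mice (95% confidence interval -0.08 to 0.66, adjusted p = 0.337 from limma) and -0.08 in HDAC2-/- mice (-0.45 to 0.28, adjusted p = 0.896 from limma). Hif3a (probe set 17487001), the hypoxia-inducible factor of the set, read 6.86, 5.57 and 6.11 in WT kidneys and 6.08, 5.92 and 6.45 in ischemic WT kidneys. It read 6.12, 5.61 and 6.11 in HDAC2-/- kidneys and 6.32, 6.66 and 6.41 in ischemic HDAC2-/- kidneys. There the groups did not overlap, as for 9.91% of all probe sets that were higher in HDAC2-/- mice. The difference was -0.03 in WT mice (-0.60 to 0.54, adjusted p = 0.967 from limma) and 0.52 in HDAC2-/- mice (-0.05 to 1.09, adjusted p = 0.358 from limma). WT replicate 1 was the highest of the 12 Hif3a values, and without it the WT difference was 0.31.

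**Figure D1:**
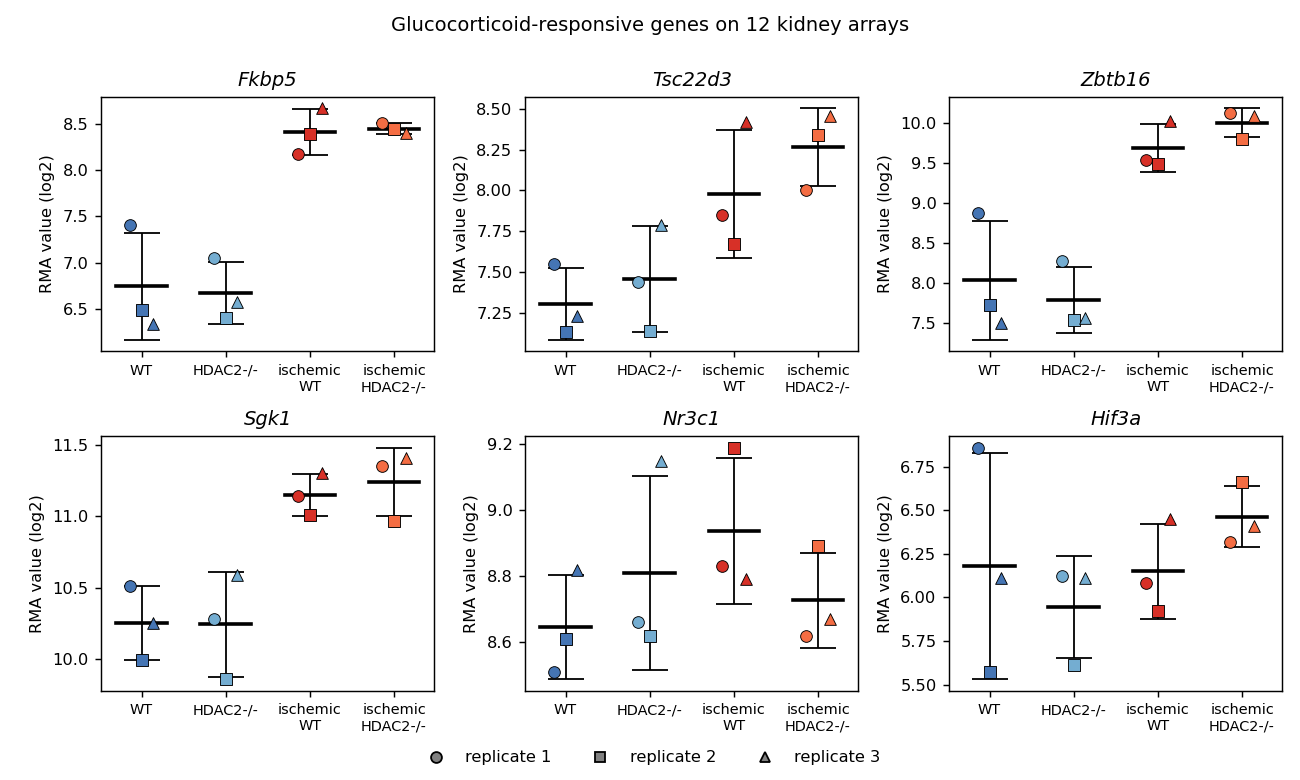
RMA value on the log2 scale (vertical axis, a separate range in each panel) of the 6 genes in the 4 groups. Symbols are single arrays with the shape giving the replicate number, and bars are the mean ± SD of 3 arrays. Fkbp5, Zbtb16 and Sgk1 lie higher on all 6 ischemic arrays than on any unischemic array. For Fkbp5, Zbtb16 and Hif3a, unischemic replicate 1 lies above replicates 2 and 3 in both genotypes.

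No difference between the genotypes passed the test in any of the 6 genes. Between ischemic HDAC2-/- and ischemic WT kidneys, 0 of the 6 were called by limma and 0 had an unadjusted p under 0.05, and over all probe sets 0% were called and 6.59% had such a p. Fkbp5 differed by 0.04 (95% confidence interval -0.49 to 0.57) and Sgk1 by 0.09 (-0.33 to 0.52). Zbtb16 differed by 0.32 (-0.33 to 0.97), Hif3a by 0.31 (-0.26 to 0.88), Tsc22d3 by 0.29 (-0.18 to 0.75) and Nr3c1 by -0.21 (-0.58 to 0.16). These intervals leave room for differences of more than 1.5-fold in 3 genes, Zbtb16, Hif3a and Tsc22d3. Between HDAC2-/- and WT kidneys without ischemia, again 0 of the 6 were called by limma and 0 had an unadjusted p under 0.05, against 0% and 2.38% of all probe sets. There Fkbp5 differed by -0.07 (-0.60 to 0.46), Zbtb16 by -0.24 (-0.90 to 0.41), Hif3a by -0.23 (-0.80 to 0.34), Nr3c1 by 0.16 (-0.20 to 0.53), Tsc22d3 by 0.15 (-0.31 to 0.62) and Sgk1 by -0.01 (-0.43 to 0.42).

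The response to ischemia was also compared between the genotypes directly, as the difference in HDAC2-/- mice minus that in WT mice. Of the 6 genes 0 were called by limma and 0 had an unadjusted p under 0.05, against 0% and 4.19% of all probe sets. Tsc22d3, called in HDAC2-/- mice and not in WT mice, differed in response by 0.13 (95% confidence interval -0.52 to 0.79). Zbtb16 differed by 0.56 (-0.36 to 1.49) and Hif3a by 0.55 (-0.26 to 1.35), and without WT replicate 1 these values were 0.14 and 0.21. Nr3c1 gave -0.37 (-0.89 to 0.15). Fkbp5 differed by 0.11 (-0.64 to 0.86) and Sgk1 by 0.10 (-0.50 to 0.70). All 6 intervals included 0.

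**Figure D2:**
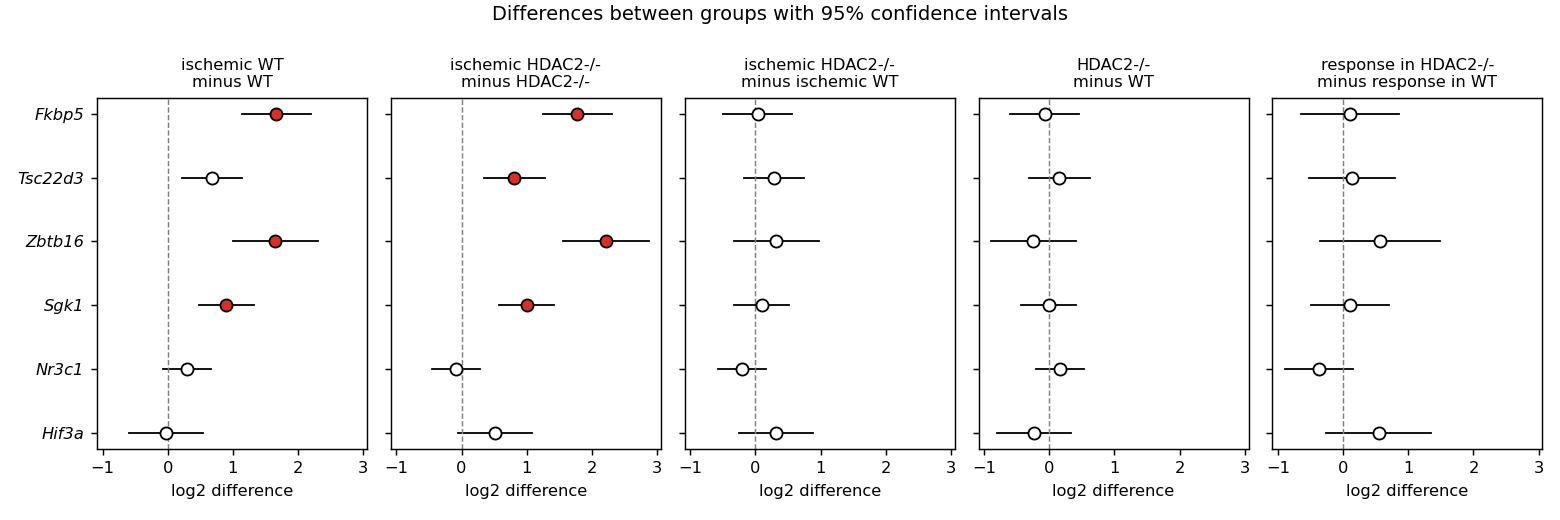
Difference between groups on the log2 scale (horizontal axis) for the 6 genes in 5 comparisons, with 95% confidence intervals from limma as lines. Filled points had an adjusted p under 0.05. The filled points are Fkbp5, Zbtb16 and Sgk1 after ischemia in WT mice and the same genes with Tsc22d3 in HDAC2-/- mice.

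The order of the 4 groups can be read gene by gene. For Fkbp5 the means ran from HDAC2-/- (6.67 ± 0.34, SD, n = 3) through WT (6.75 ± 0.58) and ischemic WT (8.41 ± 0.25) to ischemic HDAC2-/- (8.45 ± 0.06). Zbtb16 kept that order, with 7.79 ± 0.42, 8.03 ± 0.74, 9.69 ± 0.30 and 10.01 ± 0.18, and so did Sgk1, with 10.24 ± 0.37, 10.25 ± 0.26, 11.15 ± 0.15 and 11.24 ± 0.24. In these 3 genes only the step between the unischemic and the ischemic pair exceeded the spread, and the genotypes within a state overlapped. The Tsc22d3 means were 7.30 ± 0.22 in WT, 7.46 ± 0.33 in HDAC2-/-, 7.98 ± 0.39 in ischemic WT and 8.27 ± 0.24 in ischemic HDAC2-/- kidneys, with overlap between each pair of neighbours. Nr3c1 ran from WT (8.65 ± 0.16) through ischemic HDAC2-/- (8.73 ± 0.14) and HDAC2-/- (8.81 ± 0.30) to ischemic WT (8.94 ± 0.22), and Hif3a from HDAC2-/- (5.95 ± 0.29) through ischemic WT (6.15 ± 0.27) and WT (6.18 ± 0.65) to ischemic HDAC2-/- (6.46 ± 0.18). All neighbours in these 2 orders overlapped.

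The hormone receptor's chaperones, cofactors and steroid enzymes moved in both directions. Among 16 measured, WT mice had 6 rises and 2 falls and HDAC2-/- mice had 1 rise and 2 falls, with medians of 0.24 and 0.05. Over all probe sets 6.55% rose and 7.17% fell in WT mice, and 2.94% and 1.97% in HDAC2-/- mice. Hsp90aa1, the inducible HSP90 that holds the receptor and also a heat shock gene, rose by 2.60 in WT mice (SE 0.20) and by 2.36 in HDAC2-/- mice (SE 0.20). Nrip1, a nuclear receptor corepressor, rose by 1.05 in WT mice, and Hspa8, a constitutive HSP70, by 0.98, while in HDAC2-/- mice their differences of 0.46 and 0.29 were not called. Hsd11b2, which inactivates corticosterone in cells that respond to aldosterone, read 11.89, 12.09 and 11.97 in WT kidneys against 11.07, 10.44 and 11.13 in ischemic WT kidneys. The fall was -1.10 in WT mice (adjusted p = 0.00282 from limma), against -0.88 in HDAC2-/- mice (adjusted p = 0.0221 from limma). Hsd11b1, which regenerates corticosterone, fell by 0.51 in WT mice (adjusted p = 0.0465 from limma), and Nr3c2, the mineralocorticoid receptor, fell by 0.56 in HDAC2-/- mice (adjusted p = 0.0195 from limma). Their differences in the other genotype, -0.21 for Hsd11b1 and -0.17 for Nr3c2, were not called. With single arrays left out, 4 to 6 of the list rose and 1 to 2 fell in WT mice, and the falls in HDAC2-/- mice numbered 0 when HDAC2-/- replicate 1, HDAC2-/- replicate 2 or the third ischemic HDAC2-/- array was absent.

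Other genes known to be induced by glucocorticoids rose in large part. Among 35 measured, WT mice had 22 rises and 1 fall and HDAC2-/- mice had 18 rises and 0 falls, where 6.55% and 2.94% of all probe sets rose. An unadjusted p under 0.05 was reached by 26 and 25 of them, against 25.1% and 16.9% of all probe sets. The medians were 0.80 and 0.84, and 17 genes rose in both genotypes. Lcn2, a secreted siderophore-binding protein and a common marker of tubular injury, rose by 3.58 in WT mice (SE 0.18) and 3.33 in HDAC2-/- mice (SE 0.18). Pdk4, a kinase that restrains glucose oxidation, rose by 2.37 and 2.59, and Cdkn1a, the cell cycle inhibitor p21, by 2.52 and 1.89. These genes are also induced by injury, fasting or p53. What raised the genes of the list was not tested. Fam107a, an actin-associated protein induced by glucocorticoids and stress in brain, fell by 1.10 in WT mice (adjusted p = 0.0218 from limma), with values of 10.80, 9.82 and 9.79 against 8.86, 9.27 and 8.99 after ischemia. Its difference of -0.82 in HDAC2-/- mice was not called, and its fall in WT mice was lost when replicate 1 of either WT group, or replicate 3 of the ischemic one, was absent. Tat and G6pc, known for induction in liver, gave 0.12 and -0.17 for WT mice and -0.07 and -0.62 for HDAC2-/- mice, with no call.

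**Figure D3:**
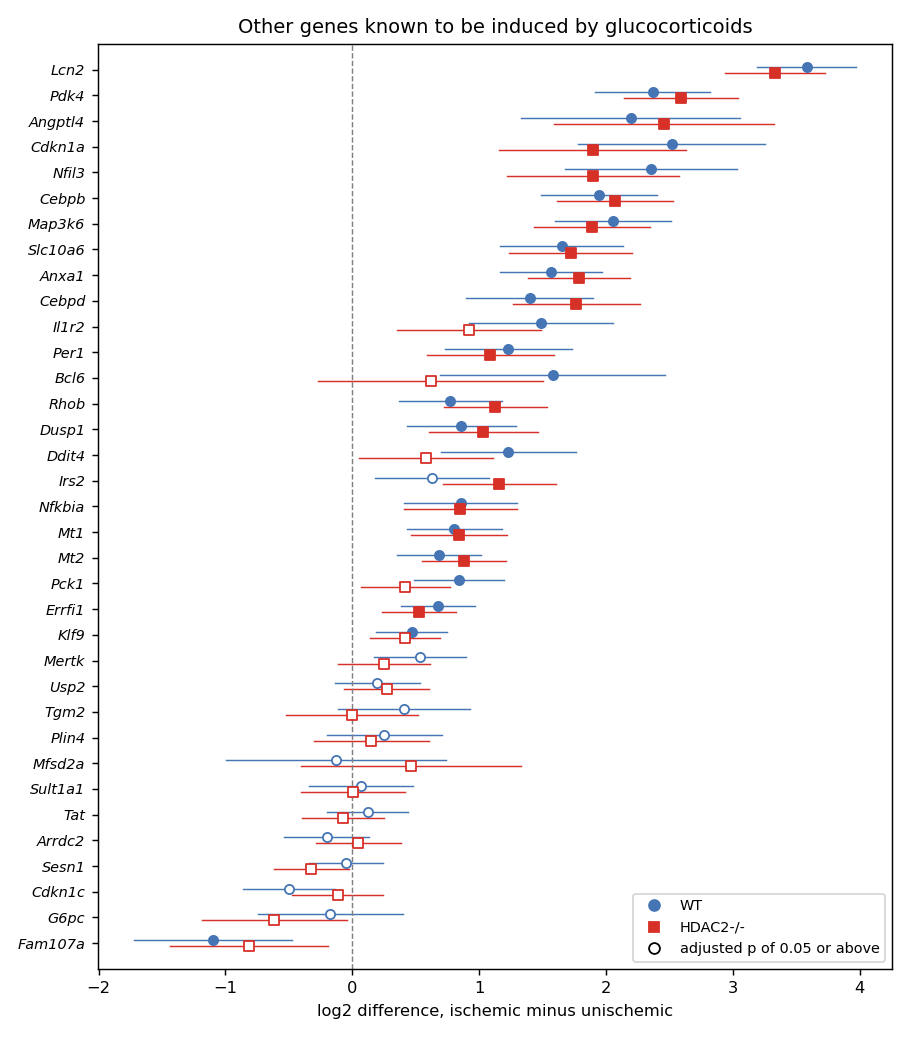
Difference between ischemic and unischemic kidneys on the log2 scale (horizontal axis) for 35 other genes known to be induced by glucocorticoids, in WT mice (circles) and HDAC2-/- mice (squares), with 95% confidence intervals. Filled symbols had an adjusted p under 0.05 from limma, 22 higher and 1 lower in WT mice and 18 higher in HDAC2-/- mice.

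Of these 35 genes, 31 had promoter windows, and 4 held the core element, which 0.44% of all 27025 genes with windows also held. The 4 are shown because their transcripts can be set beside that of Sgk1. Each is 5′ to 3′ on the strand of its gene, in build GRCm38.p6, with the core in capitals. The positions are chr8:94178980-94179022 on the plus strand for Mt1, chr4:133240622-133240664 on the plus strand for Map3k6, chr5:103629539-103629581 on the minus strand for Slc10a6 and chr14:8309870-8309912 on the minus strand for Fam107a.
Mt1: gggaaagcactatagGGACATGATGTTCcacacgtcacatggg
Map3k6: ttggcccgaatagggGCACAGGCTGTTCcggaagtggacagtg
Slc10a6: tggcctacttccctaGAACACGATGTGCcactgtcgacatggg
Fam107a: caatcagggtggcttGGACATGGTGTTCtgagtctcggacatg
Mt1, a metal-binding metallothionein, rose by 0.80 in WT mice and 0.84 in HDAC2-/- mice. Map3k6, a stress kinase, rose by 2.06 and 1.89, and Slc10a6, a transporter of sulfated steroids, by 1.65 and 1.72. Fam107a moved the other way, so the 4 genes with the core did not share a direction.

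Genes known to be repressed by glucocorticoids rose or were not called. Over all probe sets, 6.55% were higher and 7.17% lower in WT mice, against 2.94% and 1.97% in HDAC2-/- mice. Of 16 measured, 7 rose and 0 fell in each genotype, and the 7 were the same genes in both. They were Il6, Ccl2, Cxcl2, Ptgs2, Icam1, Vcam1 and Sele, which encode cytokines, chemokines, a prostaglandin synthase and endothelial adhesion molecules. Ccl2, a monocyte chemokine, read 7.09, 7.45 and 7.27 in WT kidneys and 10.49, 8.98 and 8.57 in ischemic WT kidneys, a rise of 2.08 (SE 0.34). In HDAC2-/- mice it rose by 3.14 (SE 0.34). Il6 rose by 2.80 in WT mice and 2.91 in HDAC2-/- mice. The rises of Ptgs2 were 2.64 and 2.03. Without HDAC2-/- replicate 2, 4 genes of the list rose in HDAC2-/- mice. Members of both the induced and the repressed list were thus higher on the ischemic arrays.

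Sodium transport genes downstream of Sgk1 were called at shares near those of all probe sets in WT mice. Among 16 measured, WT mice had 1 rise and 1 fall and HDAC2-/- mice had 0 rises and 1 fall, where 6.55% and 7.17% of all probe sets rose and fell in WT mice and 2.94% and 1.97% in HDAC2-/- mice. By limma 6 and 7 of them had an unadjusted p under 0.05, against 25.1% and 16.9% of all probe sets, and their medians were -0.07 and -0.26. Wnk1, a kinase upstream of the sodium-chloride cotransporter, rose by 0.61 in WT mice (adjusted p = 0.0328 from limma) and differed by -0.05 in HDAC2-/- mice. Slc9a3r2, a scaffold of the sodium-hydrogen exchanger, fell by 1.07 in WT mice (adjusted p = 0.00521 from limma) and differed by -0.64 in HDAC2-/- mice without a call. Kcnj10, a basolateral potassium channel, fell by 0.56 in HDAC2-/- mice (adjusted p = 0.0426 from limma). The rise in WT mice was lost in 4 of the 12 fits that left out 1 array, those lacking any of the WT arrays or ischemic WT replicate 2. The falls in HDAC2-/- mice ranged from 0 in 7 of these fits to 3 without HDAC2-/- replicate 3.

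Paralogs and partners of the 6 genes moved in both directions. Among 27 measured, WT mice had 5 rises and 4 falls, against 6.55% and 7.17% of all probe sets. HDAC2-/- mice had 2 rises and 1 fall, against 2.94% and 1.97% of all probe sets. Tsc22d1, a paralog of Tsc22d3, rose by 1.03 and 0.85, and Hif1a, the oxygen-regulated subunit paralogous to Hif3a, by 1.03 and 0.69. Arnt, the partner of the hypoxia-inducible factors, rose by 0.52 in WT mice, and Egln1, the prolyl hydroxylase that marks them for degradation, fell by 0.67 there. Fkbp2 and Fkbp8, immunophilins of the family of Fkbp5, fell by 0.80 and 0.60 in WT mice. In HDAC2-/- mice the differences of Arnt (0.06), Egln1 (-0.36), Fkbp2 (-0.15) and Fkbp8 (-0.29) were not called. With single arrays left out, 2 to 5 of the list rose and 2 to 5 fell in WT mice.

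Circadian clock genes were included because glucocorticoids reset peripheral clocks. Among 16 measured, WT mice had 6 rises and 1 fall and HDAC2-/- mice had 3 rises and 0 falls. The shares of all probe sets were 6.55% higher and 7.17% lower in WT mice, and 2.94% and 1.97% in HDAC2-/- mice. Cry1, a repressor of the clock, rose by 1.39 and 1.50, and Nfil3, a basic leucine zipper repressor, by 2.36 and 1.89. Ciart, another clock repressor, rose by 1.40 in WT mice and Arntl, which encodes the activator BMAL1, fell by 0.62 there (adjusted p = 0.0496 from limma). In HDAC2-/- mice their differences of 0.99 and -0.44 were not called. The fall of Arntl was lost in 8 of the 12 fits that left out 1 array, and 5 clock genes rose in HDAC2-/- mice without HDAC2-/- replicate 3. Per1, which belongs to both the clock and the induced list, rose by 1.23 in WT mice and 1.09 in HDAC2-/- mice.

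Among kidneys without ischemia, replicate 1 stood apart for several of these genes, a pattern chosen after the values were seen. Replicate 1 was the highest array of its group in both WT and HDAC2-/- kidneys for Fkbp5, Zbtb16 and Hif3a, 3 of the 6 genes. It was so for 15 of 35 other induced genes (42.9%), 7 of 16 receptor chaperones, cofactors and enzymes (43.8%), 3 of 16 repressed genes (18.8%), 5 of 16 sodium transport genes (31.2%), 5 of 27 paralogs and partners (18.5%) and 3 of 16 clock genes (18.8%), and for 14.3% of all 22180 genes. For Fkbp5, replicate 1 exceeded the mean of replicates 2 and 3 by 0.995 in WT kidneys and by 0.57 in HDAC2-/- kidneys. The excess was 1.27 and 0.72 for Zbtb16 and 1.02 and 0.26 for Hif3a. When all 22180 genes were ranked by the smaller of the 2 excesses, Angptl4, a lipase inhibitor induced by glucocorticoids and fasting, stood first with 1.31 and 1.24. Bcl6 ranked 11, Cdkn1a 13, Zbtb16 14 and Fkbp5 60. For Fkbp5, the excess in WT kidneys was smaller than the rise after ischemia, and every ischemic array stayed above replicate 1.

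**Figure D4:**
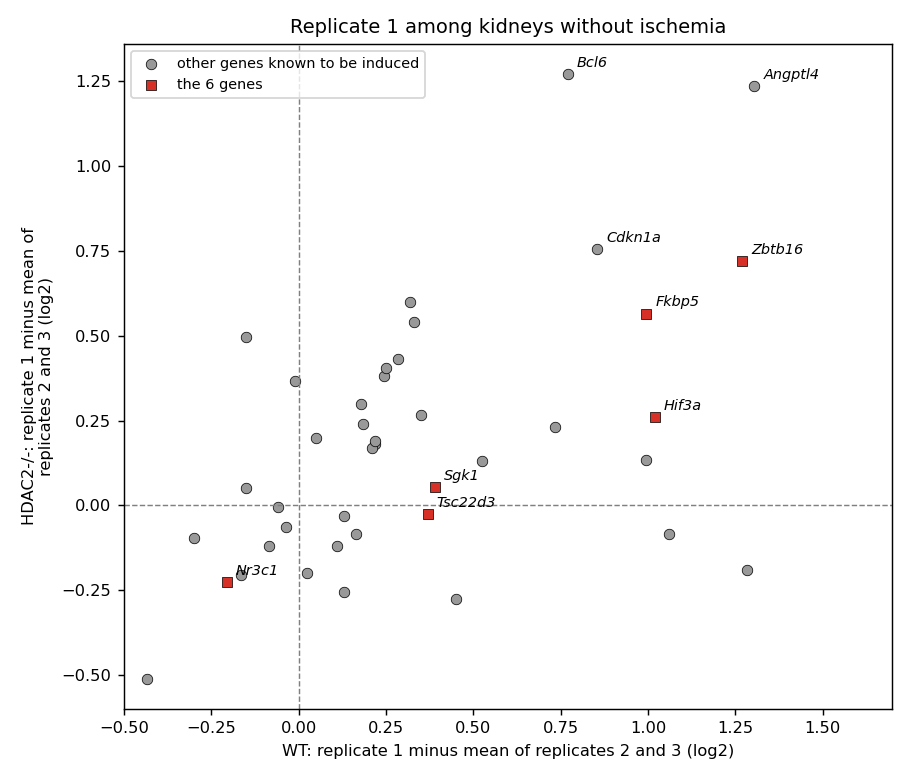
Excess of replicate 1 over the mean of replicates 2 and 3 on the log2 scale among kidneys without ischemia, in WT mice (horizontal axis) and HDAC2-/- mice (vertical axis). Each point is a gene, squares for the 6 genes and circles for 35 other genes known to be induced by glucocorticoids. Zbtb16, Fkbp5, Hif3a, Angptl4, Bcl6 and Cdkn1a lie above 0 on both axes.

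Other values moved with replicate 1, and their part in this pattern was not tested. In WT replicate 1 the mean of 2 measured inner medulla markers was 7.71, against 6 to 6.70 on the other 11 arrays, but HDAC2-/- replicate 1 read 6.02. Several clock genes stood apart in WT replicate 1 as well. Dbp, an output gene of the clock, read 9.99, 10.84 and 11.10 in WT kidneys, Ciart 7.07, 7.97 and 8.49, and Bhlhe41 6.17, 6.81 and 7.62, each lowest in replicate 1. Npas2, an activator of the clock, exceeded the other replicates by 0.81 in WT and 0.52 in HDAC2-/- replicate 1. The hour at which each kidney was taken is not given in the sources used here. Without replicate 1 of both unischemic groups, Fkbp5 rose by 1.998 in WT mice and 1.97 in HDAC2-/- mice, Zbtb16 by 2.08 and 2.46, and Sgk1 by 1.03 and 1.02. These 3 genes were called in each genotype, and Tsc22d3 in neither (adjusted p = 0.0692 and 0.157 from limma). Replicate 1 was singled out as the highest unischemic array of Fkbp5 and Zbtb16, so leaving it out could only enlarge their rises. Their kept calls are therefore no separate check.

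Genes with the most similar profiles were sought by the root mean square difference of values over 12 arrays, each gene centred on its own mean. Across 19397 named genes, the profile nearest to Fkbp5 was that of Sema7a, a membrane-bound semaphorin, with a difference of 0.16. Zbtb16 and Slc10a6 followed, both at 0.20. Zbtb16 in turn was nearest to Fkbp5 (0.20), Sema7a (0.25) and Slc10a6 (0.30). Sema7a rose by 1.44 in WT mice and 1.77 in HDAC2-/- mice. Sgk1 was nearest to B4galt1 (0.14), Atf4 (0.18) and Crem (0.19), and Tsc22d3 to Rgcc, Dcun1d4 and Ndfip2, all at 0.20. Fkbp5 and Zbtb16 were thus each among the nearest 3 profiles of the other. Sgk1 and Tsc22d3, which rose less, had no other of the 6 among their nearest 3. The values were not scaled, so genes with rises of unlike size lie apart by this measure even where they move on the same arrays.

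Checks of the samples touch these results at a few points. The 5 proximal tubule markers averaged 12.1 to 12.4 on every array, but some distal markers fell after ischemia. Intercalated cell markers averaged 9.32 without and 8.96 with ischemia for WT, against 9.37 and 8.59 for HDAC2-/-. Among them Slc4a1 was called (-1.62 and -1.31), and Slc26a4 (0.60 and -0.55) and Atp6v1g3 (-0.08 and -0.47) were not. Pvalb (-0.96, distal convoluted tubule) and Fxyd4 (-0.67, principal cell) were called for WT alone. Other markers of their segments were not called. The part of distal cells was not tested. Adrenal cortex markers averaged 4.33 to 4.89 over the 12 arrays, with the steroid enzyme gene Cyp11b1 between 3.68 and 4.39. Mc2r, the corticotropin receptor, was the exception in that list and rose by 0.94 in HDAC2-/- mice (adjusted p = 0.00884 from limma). Its values of 3.67 to 4.91 lay below the array medians of 5.62 to 5.76. In WT mice it differed by 0.12 without a call. Neutrophil markers averaged 5.13 to 5.32 on unischemic arrays and 5.23 to 6.38 on ischemic arrays, with 3 of 3 measured. Of these S100a8 rose by 1.46 and 1.51, S100a9 rose by 1.06 in HDAC2-/- mice and gave 0.89 without a call in WT mice, and Mmp9 gave -0.06 and -0.09. The 3 macrophage markers averaged 7.44 to 8.01 on unischemic and 7.66 to 8.09 on ischemic arrays. Among them Cd68 rose by 1.21 and 1.33, and Adgre1 (-0.28 and -0.29) and Csf1r (-0.34 and -0.28) were not called. The part of infiltrating cells in the rises of the 6 genes was not tested.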

How the data were processed

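The deposited values are log2 values normalized by the authors by robust multiarray average (RMA) using Transcriptome Analysis Console 4.0, per the labels and the methods, for 34472 probe sets on 12 arrays. RMA shares its quantile step over arrays, so a level is relative to the array. Of the probe sets, 23521 had 1 symbol in the platform annotation, 1820 several and 9131 were not in it. For a gene with several, the probe set with the highest mean stood for it. limma 3.58.1 in R 4.3.3 fitted 1 mean per group without further normalization or filtering, with an empirical Bayes step on 8 residual degrees of freedom (5.94 prior) and Benjamini-Hochberg adjustment over all probe sets. The median SE of a difference was 0.17. The number of arrays limits the precision. Arrays of a group correlated at 0.983 to 0.994, and array medians lay between 5.62 and 5.76. Two-sided exact permutation tests were run on single values.

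The members and lists were chosen with earlier results of these data known. Named were the 6 genes, Hdac2, from each list up to 3 genes with the largest rise and 3 with the largest fall among those called, and the 3 most similar profiles. Predicted genes (Gm with digits, or ending in Rik) were left out of the last. Tat, G6pc, Mt1, Map3k6, Slc10a6, Per1, Cxcl2, Icam1, Vcam1, Sele, Angptl4, Bcl6, Dbp, Bhlhe41 and Npas2 were named after their values were seen. Per1 and Nfil3 stand in 2 lists, as do Fkbp4 and Nr3c2. Alternatives were centring, quantile normalization, a mean of at least 5, probe sets of 1 symbol, the 2 groups compared alone, other variance moderation, array weights, a replicate block, other call rules, the lowest probe set, and leaving out each array. Leaving out replicate 1 of both unischemic groups was added after seeing the data. Promoters and gene names are from RefSeq, build GRCm38.p6. Plots were made in Python 3.11.15 (matplotlib 3.10.9).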

Additional observations from a re-analysis of the deposited data

How the results depend on the processing

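Fkbp5 and Zbtb16 in both genotypes, and Sgk1 in WT mice, were called in 23 of 23 refits. Of 744 values of the 6 genes over all alternatives, 687 kept their direction and side of the threshold. The other call rules and the lowest probe set used the unchanged main fit, so there no value could change sign. Values not called in the main fit that stayed so count among the 687. The number called in HDAC2-/- mice was 2 without the empirical Bayes step, which lost Sgk1 and Tsc22d3, and 2 to 4 when single arrays were left out. Leaving out that step also lowered the calls over all probe sets from 4730 to 3267 (WT) and from 1691 to 844 (HDAC2-/-), and array weights raised them to 6007 and 6356. The other induced genes that rose numbered 14 in WT mice at an unadjusted p under 0.05 with at least 2-fold and 11 in HDAC2-/- mice without the empirical Bayes step. Smaller list counts moved more: with array weights 7 sodium transport genes and 6 paralogs fell in HDAC2-/- mice, and 6 clock genes and 4 chaperones, cofactors and enzymes rose. Without the empirical Bayes step 5 and 3 repressed genes rose.

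Every change of sign was in a value that passed no test. Array weights gave 0.23 for Hif3a in WT mice, 0.024 for Nr3c1 in HDAC2-/- mice, 0.023 for Fkbp5 between unischemic genotypes and -0.010 for its difference in response. Without replicate 1 of both unischemic groups, Hif3a in WT mice gave 0.31, the unischemic genotypes differed by 0.07 for Fkbp5, 0.11 for Sgk1 and 0.02 for Hif3a, and the response by -0.033 for Fkbp5 and -0.012 for Sgk1. Leaving out single arrays gave -0.34 to 0.31 for Hif3a in WT mice, -0.18 to 0.087 for Nr3c1 in HDAC2-/- mice and -0.08 to 0.17 for Fkbp5 between ischemic genotypes. Between unischemic genotypes the ranges were -0.28 to 0.26 for Fkbp5, -0.013 to 0.31 for Tsc22d3, -0.51 to 0.18 for Zbtb16, -0.18 to 0.19 for Sgk1, -0.0067 to 0.26 for Nr3c1 and -0.54 to 0.11 for Hif3a. For the difference in response they were -0.22 to 0.31 for Fkbp5, -0.025 to 0.35 for Tsc22d3, -0.092 to 0.27 for Sgk1, 0.14 to 0.83 for Zbtb16 and 0.21 to 0.85 for Hif3a. The causes were not tested.

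With the replicate number as a block, 4 of the 6 genes were called in WT mice and 4 in HDAC2-/- mice. Calls over all probe sets moved from 4730 to 4906 and from 1691 to 1754. Arrays of equal number deviated together in some pairs and not in others (correlations from -0.37 to 0.44 in 18 pairs, 8 of them over 0.1). The numbers were therefore not taken to pair the samples, and 5 of 12 arrays correlated best with their own number.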
